A study of Mus musculus with 2 samples.

Results

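The genes described here lie on the distal part of mouse chromosome 1, between 160 and 180 Mb by their start in the assembly GRCm38.p6. Members were genes with at least 1 probe set annotated to a single symbol and placed in this interval by their Entrez identifier, and gene order in the assembly set their order here. The interval held 179 such genes, of which 17 were left out by rule: the interferon-inducible p200 cluster, the mitochondrial ribosomal, Nduf and Sdh genes and several single genes. That left 162 members, 153 of them protein-coding and 8 long noncoding RNA genes, among 18193 genes on the arrays. They were read by 335 probe sets, from 1 to 6 per gene, and 90 of the members had several.

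Liver RNA of Bglu3 congenic mice was hybridised to 1 array and liver RNA of C57BL/6 apoE-/- mice to another. Bglu3 is a mouse locus for blood glucose, and a congenic strain carries a chromosome segment of a donor strain on the background of another. Per the labels, both groups share the C57BL/6 background strain, hyperglycemia, weaning onto chow at 3 weeks of age, a Western diet from 6 weeks of age for 12 weeks, and 8 µg of total RNA per labelling. The sources used here do not give the donor strain, the ends of the segment, the apoE genotype of the congenic mice, the sex of the animals or the number of mice behind each array. With 1 array per group there was no replicate, no test and no standard error, so every difference below describes these arrays.

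The interval is known for several gene families of immune recognition. Fc receptors bind the constant part of antibodies and pair with a common signalling chain, and receptors of the SLAM family pass signals between leukocytes that bind each other. Flavin monooxygenases, which oxidise nitrogen and sulfur compounds in the endoplasmic reticulum, form another cluster, and between the families lie single genes of mitochondrial metabolism, haem and sterol synthesis, the secretory pathway and ion transport. In liver, Kupffer cells, the resident macrophages, carry activating Fc receptors, whereas hepatocytes carry many metabolic enzymes.

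Among members bright enough to pass a filter on low values, explained with the counts below, 5 differed by 2-fold or more, all higher in the congenic array, and their promoters are shown because these genes had the largest differences there. Each line runs 5′ to 3′ on the gene's strand, from 250 bases before to 50 bases after the start annotated by RefSeq in GRCm38.p6. This assembly is that of C57BL/6J, so the lines show the sequence of the background strain and not that of the donor. Capitals mark the letters of 6 motifs, searched on both strands: GGGCGG as the GC box, CCAAT as the CCAAT box, AGGAAG as the core bound by ETS factors, CACGTG as the E-box, AGATAA as the motif of GATA factors and TATAAA as the TATA box.
Rgs5, chr1:169655251-169655550, plus strand: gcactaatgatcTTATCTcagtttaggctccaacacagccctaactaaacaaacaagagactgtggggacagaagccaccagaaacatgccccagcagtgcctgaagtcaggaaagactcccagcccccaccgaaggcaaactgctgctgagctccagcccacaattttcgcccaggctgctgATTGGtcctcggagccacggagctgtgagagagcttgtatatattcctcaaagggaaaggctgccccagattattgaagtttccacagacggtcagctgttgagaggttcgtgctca
Kcnj10, chr1:172340960-172341259, plus strand: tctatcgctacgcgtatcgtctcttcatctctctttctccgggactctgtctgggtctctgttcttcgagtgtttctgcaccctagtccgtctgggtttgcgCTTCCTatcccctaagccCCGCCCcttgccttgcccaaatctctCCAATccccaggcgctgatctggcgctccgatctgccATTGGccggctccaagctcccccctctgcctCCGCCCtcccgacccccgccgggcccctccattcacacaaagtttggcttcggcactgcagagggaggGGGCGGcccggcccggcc
Slamf9, chr1:172475110-172475409, plus strand: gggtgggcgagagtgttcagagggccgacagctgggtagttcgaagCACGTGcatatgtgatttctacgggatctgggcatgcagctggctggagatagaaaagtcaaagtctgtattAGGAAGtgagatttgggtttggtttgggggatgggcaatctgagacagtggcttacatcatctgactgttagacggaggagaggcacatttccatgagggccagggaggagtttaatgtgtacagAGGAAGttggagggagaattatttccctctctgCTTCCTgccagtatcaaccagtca
Ackr1, chr1:173333454-173333753, minus strand: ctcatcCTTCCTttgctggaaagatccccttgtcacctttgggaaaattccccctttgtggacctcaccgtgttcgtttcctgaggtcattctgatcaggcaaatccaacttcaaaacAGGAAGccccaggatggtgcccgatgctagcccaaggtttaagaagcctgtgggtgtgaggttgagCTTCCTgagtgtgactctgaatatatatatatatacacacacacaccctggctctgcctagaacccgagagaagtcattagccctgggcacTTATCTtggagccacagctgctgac
Fmn2, chr1:174501575-174501874, plus strand: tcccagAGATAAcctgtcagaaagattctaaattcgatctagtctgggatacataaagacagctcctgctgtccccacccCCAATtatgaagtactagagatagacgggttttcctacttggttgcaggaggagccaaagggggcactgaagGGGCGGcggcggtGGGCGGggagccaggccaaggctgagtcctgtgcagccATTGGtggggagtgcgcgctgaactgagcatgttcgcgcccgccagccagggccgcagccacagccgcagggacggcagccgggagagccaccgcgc

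The 5 promoters did not share 1 set of letters. Those of Kcnj10 and Fmn2 were rich in G and C, at 63.7% and 61.0%, against a median of 52.7% over 27025 promoters, and together they held all 5 GC boxes. The promoters of Slamf9 and Ackr1, less rich in G and C, each held 3 ETS cores, and Kcnj10 held 1. The E-box was found only in Slamf9, GATA letters in Rgs5, Ackr1 and Fmn2, and TATAAA in none of the 5. ETS cores occurred in 40.3% of 144 members' promoters and in 35.1% of all promoters, GC boxes in 47.2% and 35.9%, CCAAT in 44.4% and 37.9%, and the E-box in 9.72% and 7.24%. The GATA letters occurred in 12.5% and 11.4%, and TATAAA in 8.33% and 14.2%. A match of letters describes the window and does not show binding.

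Kcnj10, which encodes an inwardly rectifying potassium channel known from glia and kidney, had the largest difference. Its only probe set read 144.84 in the congenic and 34.8 in the control liver. That is a difference of 1.91 on the log2(intensity + 5) scale, the scale of all differences below, on which a pseudocount of 5 shrinks the differences of dim genes. Fmn2, a formin that nucleates actin filaments, read 79.34 against 18.82 (log2 difference 1.82). Its other probe sets, both below the filter, read 30.47 against 10.18 (1.22) and 8.37 against 7.31 (0.12). All 3 were higher in the congenic array, by unequal amounts, and only the brightest passed the filter. Slamf9, a SLAM family receptor of macrophages and dendritic cells, read 96.99 against 27.92 (1.63). Ackr1, the atypical chemokine receptor of red cells and venular endothelium, read 112.47 against 33.97 (1.59). Both have a single probe set, so no second reading of either gene was at hand.

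Rgs5, a regulator of G-protein signalling found in pericytes, was the brightest of the 5. Its probe sets read 1615.83 against 732.42, 801.93 against 107.45, 62.29 against 45.87 and 61.22 against 32.14. The log2 differences were 1.14, 2.84, 0.40 and 0.83, all on the higher side, so the direction was shared while the size was not. Its neighbour Rgs4, of the same family, read 43.58 against 30.79 (0.44), and Rgs7 was near the lowest values on both arrays at 1.46 against 1. The other probe sets of Rgs4, both below the filter, differed by 0.06 and -0.41.

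**Figure D1:**
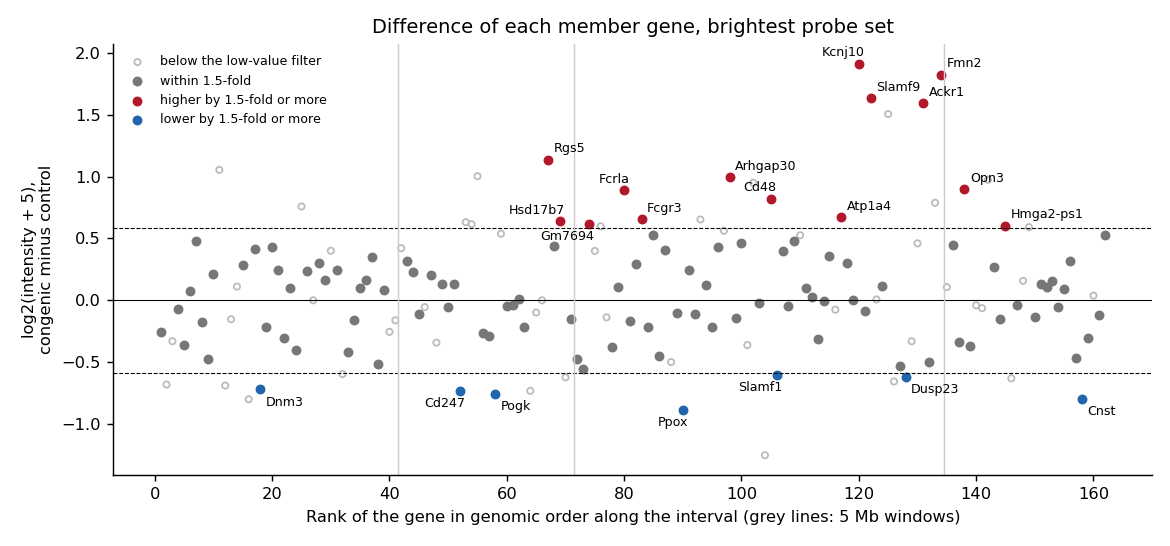
Difference of each of the 162 members (log2(intensity + 5), congenic minus control, brightest probe set) against its rank in genomic order, with dashed lines at 1.5-fold, grey lines between 5 Mb windows, and open points for genes below the low-value filter. The 4 highest filled points, Kcnj10, Slamf9, Ackr1 and Fmn2, lie in the third window, and no filled point of the first window is higher by 1.5-fold.

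Over the interval as a whole, a larger share of members than of all genes was past 1.5-fold. A gene was read from its brightest probe set, and it passed the low-value filter when its mean over both arrays was at or above the median of all probe sets, an intensity of about 18.9. Of the 162 members, 113 passed. Past 1.5-fold were 14 members on the higher and 7 on the lower side, or 18.6% of the 113, where 10.7% of all 12117 genes above the filter differed by that much. Of these 21, 7 were at or above the median of their array on 1 array only, the one where they were higher: Fmn2, Fcrla, Opn3, Gm7694, Hmga2-ps1, Pogk and Slamf1. With both arrays required to reach it, 14 of 104 members (13.5%) were past 1.5-fold, against 8.98% of all genes, 9 of them higher and 5 lower. With the filter on the mean, the members higher by 1.5-fold were 12.4% of the 113, against 6.53% of all genes, and those lower were 6.19%, against 4.18%. Past 2-fold there were 5 members, 4.42%, against 2.49% of all genes, and none of the 5 was lower, against 0.99% of all genes. The median difference was 0.08 over the members and 0.04 over all genes, but 0.019 against 0.043 with both arrays required and 0.005 against 0.025 with all probe sets of a gene averaged, so the order of these medians depended on the setting. With the filter on the mean, the median size of a difference in either direction was 0.29 in the members and 0.20 over all genes.

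The members past 1.5-fold were mostly dim genes. When all genes above the filter were split into 3 equal classes of 4039 by brightness, 15 of the 42 members in the dimmest class (35.7%) were past 1.5-fold, against 17.5% of all genes of that class. In the middle class 3 of 35 members (8.57%) and in the brightest class 3 of 36 members (8.33%) were past it, against 8.67% and 5.92% of all genes. The members' share was thus above that of all genes in the dimmest class and near it in the middle class. All members named above that reached the median on 1 array only lie in the dimmest class. The count of that class thus includes members that passed the filter through their higher array, and the classes were not read with both arrays required. With a filter at the 75th percentile only 5 of 60 members (8.33%) were past 1.5-fold, against 6.9% of all genes. With a pseudocount of 20 it was 12 of 113 (10.6%), against 6.53%.

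The 49 members below the filter are given as counts. Of these, 12 were higher and 9 lower by 1.5-fold, and with them 42 of all 162 members (25.9%) were past it, against 16.6% of all genes. Of the 49, 4 were past 2-fold, and they were picked out after their values were seen. With them 9 of all 162 members (5.56%) were past 2-fold, against 4.11% of all genes. Shares over all genes below the filter were not counted separately. Cfap45, a cilia-associated gene, read 20.86 against 4.11 (log2 difference 1.51), Ankrd45 7.79 against 1.16 (1.05) and Mael, a germline gene that protects against transposons, 10.13 against 2.55 (1.003). Slamf7, another SLAM receptor, read 2.48 against 12.81 (-1.25). At such intensities the pseudocount sets much of the size.

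Along the interval the members past 1.5-fold were unevenly placed. In the first 5 Mb 1 of 28 members above the filter (3.57%) was past 1.5-fold, and in the second 4 of 19 (21.1%). In the third it was 13 of 46 (28.3%) and in the last 3 of 20 (15.0%). Over all genes above the filter, 10.7% were past it and 6.53% were higher by that much. The windows were not read with both arrays required to reach the median, and their shares were not tested against each other. Fcrla, Gm7694, Slamf1 and Fmn2 in the third window reached the array median on 1 array only. So did Pogk in the second and Opn3 and Hmga2-ps1 in the last. Of the 13 in the third window, 10 were higher, among them genes of the Fc and SLAM receptor clusters and, further along, Atp1a4, Kcnj10, Slamf9, Ackr1 and Fmn2. Differences of neighbouring members did not share their direction more often than not: 47 of 112 adjacent pairs above the filter had the same sign. The longest run of one sign was 6 members, all lower, from Cd247 to Tmco1, and the next was 5, all higher, from Pea15a to Kcnj10.

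Other parts of the chromosome were read with the same filter and fold. They were taken whole, whereas the members had genes left out by rule. From 140 to 160 Mb, 11 of 48 genes above the filter (22.9%) were past 1.5-fold, beyond 180 Mb 11 of 78 (14.1%) and below 140 Mb 53 of 445 (11.9%). The share over all of chromosome 1 was 14.0%, and over the other 19 chromosomes, the autosomes and X, it ranged from 7.23% to 13.1%. The members' share of 18.6% lay between those of the neighbouring parts. With 1 array per group these shares were not tested against each other.

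**Figure D2:**
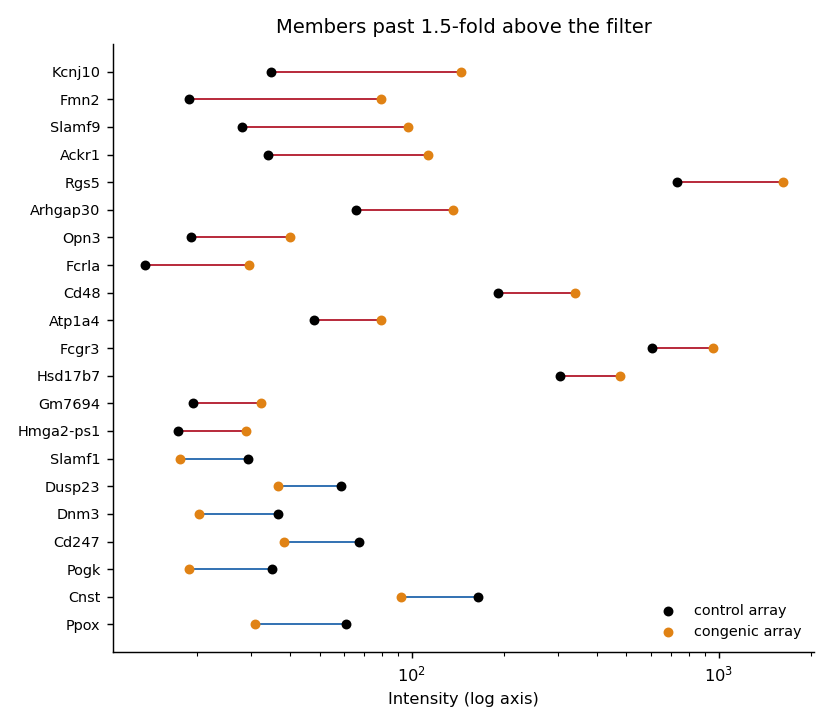
Intensity (log axis) of the 21 members past 1.5-fold above the filter on the control array (black) and the congenic array (orange), ordered by log2 difference, with the line in red for members higher and in blue for members lower in the congenic array. Rgs5, Fcgr3, Hsd17b7 and Cd48 are the brightest of the set, and all 7 lower members lie at or below 92.1 on the congenic array.

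The Fc receptor genes were higher or nearly level. Of the 6 measured, 5 passed the filter, 2 were higher by 1.5-fold and none lower, and their median was 0.41. Of all genes above the filter, 10.7% were past 1.5-fold and 6.53% were higher by that much. Fcgr3, an activating receptor for IgG, read 955.06 against 605.19 (log2 difference 0.65). Fcer1g, the signalling chain that Fcgr3 and Fcgr4 share, read 1709.91 against 1288.66 (0.41), and Fcgr4 read 1319.38 against 1077.36 (0.29). The activating receptors and their chain were thus all brighter on the congenic array. Fcgr2b, the inhibitory receptor, was lower by a small amount at 585.42 against 659.03 (-0.17). Its 4 probe sets above the filter ran from -0.17 to -0.07, where the median size over all genes was 0.20. Its remaining probe set, below the filter, read 1.0 against 3.91 (-0.57). Fcrla, a Fc receptor-like protein of B cells, read 29.36 against 13.5 (0.89) on its brightest probe set, but its other probe sets, both below the filter, differed by -0.07 and -0.16. Fcer1a, a chain of the IgE receptor, was below the filter at 7.09 against 3.79. Fcgr2b, Fcgr3 and Fcgr4 are close relatives, and how far their probe sets bind each other's transcripts was not tested.

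Receptors of the SLAM family differed in both directions. Of 9 measured, 7 passed the filter, with 2 higher, 1 lower and a median of -0.03. Over all genes above the filter, 10.7% were past 1.5-fold. Cd48, the ligand of the receptor Cd244a, read 340.01 against 190.19 (log2 difference 0.82), and Slamf9 was given above. Cd84, a receptor that binds itself on neighbouring cells, read 423.69 against 319.5 (0.40), with a second probe set below the filter at -0.86. Ly9 and Slamf6, both known from lymphocytes, were nearly level at 95.16 against 96.92 (-0.03) and 54.57 against 56.63 (-0.05). Slamf8, a macrophage member of the family, read 27.3 against 41.64 (-0.53), opposite to Slamf9. Slamf1 read 17.59 against 29.24 (-0.60), just past 1.5-fold, and its other probe sets, both below the filter, read higher (0.21 and 0.73).

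Other genes of immune cells, vessels and cell adhesion, read as 1 list, were mostly dim. Of 9 measured in the list of selectins, TNF ligands and lymphocyte genes, 4 passed the filter, with Ackr1 higher, Cd247 lower and a median of 0.02. With 4 genes, the count is only a description beside the 10.7% of all genes past 1.5-fold. Cd247, the zeta chain of the T cell receptor, read 38.36 against 67.14 (log2 difference -0.73), while its 3 dimmer probe sets ran from 0.07 to 0.55. Selp, the selectin of platelets and endothelium, read 36.18 against 50.14 (-0.42), and F11r, a junctional adhesion molecule, 732.11 against 528.94 (0.47). Fasl, Tnfsf4, Xcl1 and Sele did not pass the filter, and Sele, the endothelial selectin, read 9.18 against 16.43 (-0.60). Arhgap30, a GTPase-activating protein of blood cells, was counted with the signalling genes. It read 135.92 against 65.62 (0.997) on its only probe set above the filter, and a second probe set below it read 4.81 against 17.41 (-1.19).

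Most markers of immune cells encoded elsewhere were higher in the congenic array, as were Fcgr3, Cd48, Slamf9 and Arhgap30 but not Fcgr2b, Slamf1, Slamf8 or Cd247, and their part in the values above was not tested. Of 14 macrophage and Kupffer cell markers, 9 were higher by 1.5-fold and none lower, with a median of 0.73. Their intensities summed to 35331 in the congenic and 23625 in the control liver, a ratio of 1.5. Of 9 granulocyte markers measured, 8 were higher (median 2.27, summed intensity 12747 against 5119), and of 12 B and T lymphocyte markers measured 9 passed the filter and 7 were higher (median 0.88, 2667 against 1097). Single genes made up most of these sums: Lcn2 read 8590 against 3853 in the granulocyte list. In the lymphocyte list Cd52 read 1457 against 762. The lymphocyte markers Cd3e, Cd4 and Cd79a were below the filter. Of all genes above the filter, 6.53% were higher by 1.5-fold. No marker was at the repeated low value of 1. In whole liver, more cells of a type and more RNA per cell cannot be told apart.

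The Fc receptor and SLAM lists were also set apart, with the list of selectins, TNF ligands and lymphocyte genes. The last of these also holds genes of vessels and cell adhesion, Ackr1 among them. Of the 16 members of these lists above the filter, 7 (43.8%) were past 1.5-fold, 5 of them higher. Fcrla and Slamf1, among these, reached the array median on 1 array only. Of the other 97 members, 14 (14.4%) were past it, 9 higher and 5 lower, with 3 past 2-fold: Kcnj10, Fmn2 and Rgs5. That share was still above the 10.7% of all genes. This split was made after the values were seen. A lower share among the members left thus followed from the choice of lists, and its cause was not tested.

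Markers of stellate cells and pericytes, the cells in which Rgs5 is best known, were higher in part. Of 10 measured, 5 were higher by 1.5-fold, the other 5 were within it and none was lower by that much, with a median of 0.52 and a summed intensity of 3281 against 2291. Pdgfrb, a growth factor receptor that marks pericytes, read 205.66 against 127.24 (log2 difference 0.67), while Des, the intermediate filament of stellate cells, read 32.92 against 37.24 (-0.16). Of 10 endothelial markers none was higher by 1.5-fold and 1, Lyve1, was lower (median 0.25). Of 5 erythroid markers above the filter 1 was higher and 1 lower (median -0.09). The part of these cells in the values of Rgs5 and Ackr1 was not tested. The 9 hepatocyte markers measured, among them albumin, all passed the filter and lay within 1.5-fold (median 0.03). Over all genes above the filter, 6.53% were higher and 4.18% lower by 1.5-fold.

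**Figure D3:**
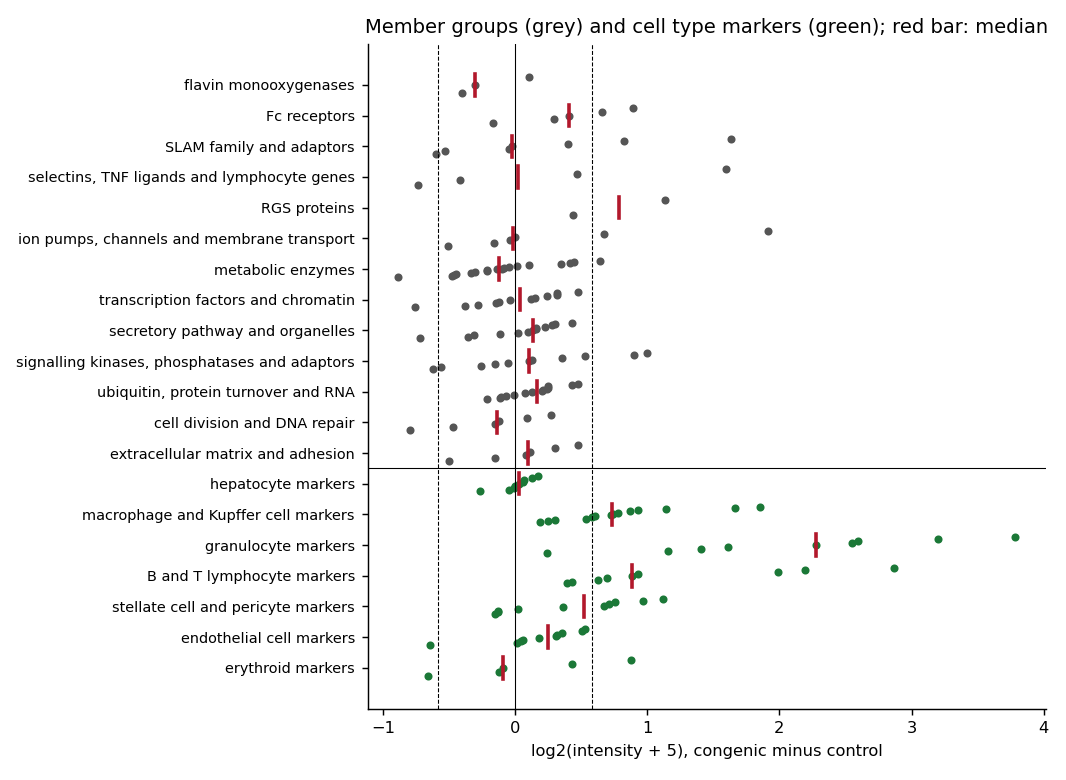
Log2 differences (log2(intensity + 5), congenic minus control) of genes above the filter in 13 lists of members (grey points) and 7 lists of cell type markers (green points), with medians as red bars and dashed lines at 1.5-fold. The granulocyte, lymphocyte and macrophage markers lie mostly to the right of the upper line, and most members of the 13 lists lie between the lines.

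Genes of metabolism were past 1.5-fold about as often as genes at large. Of the 18 measured, all passed the filter and 2 were past 1.5-fold, 1 higher and 1 lower, a share near the 10.7% of all genes, and their median was -0.12. Ppox, the protoporphyrinogen oxidase of haem synthesis, read 30.81 against 61.08 (log2 difference -0.88), the most negative value of the members above the filter. Its other probe sets, both below the filter, differed by 0.11 and -0.29. Hsd17b7, a reductase of cholesterol synthesis, read 477.24 against 303.94 (0.64) on its brightest probe set. Its next probe sets read 91.91 against 83.65 (0.13) and 82.06 against 77.01 (0.09), so its place past 1.5-fold rests on 1 probe set, whose name marks probes that may bind other transcripts.

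Other metabolic members, named after their values were seen, differed in both directions within 1.5-fold. Fh1, the fumarase of the citric acid cycle, was the third brightest member at 4055.61 against 2974.76 (log2 difference 0.45). Tfb2m, which starts transcription of mitochondrial DNA, read 317.19 against 439.67 (-0.47), and Tomm40l, of the outer membrane import channel, 54.24 against 75.87 (-0.45). Another probe set of Tomm40l above the filter went the other way at 27.63 against 21.08 (0.32). Kmo, the kynurenine hydroxylase of tryptophan breakdown, read 1233.5 against 1556.06 (-0.33). Cox20, an assembly factor of cytochrome oxidase, was close to level at 1100.37 against 1021.46 (0.11). Uap1, which makes UDP-N-acetylglucosamine, read 295.87 against 413.8 (-0.48), and its 3 probe sets above the filter were all lower. Pigc, of glycosylphosphatidylinositol anchor synthesis, read 242.19 against 180.03 (0.42).

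The flavin monooxygenases stayed within 1.5-fold on their brightest probe sets. Fmo1, which the liver expresses strongly, was almost level at 2358.83 against 2197.3 (log2 difference 0.10). Fmo4 read 33.25 against 42.12 (-0.30). Fmo2, best known from lung, read lower on all 4 probe sets above the filter: 232.79 against 309.01 (-0.40), 193.32 against 250.14 (-0.36), 154.62 against 241.35 (-0.63) and 115.84 against 178.38 (-0.60). The remaining probe set, below the filter, went the other way at 26.81 against 10.35 (1.05).

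None of the 10 brightest members was past 1.5-fold, and their differences ran from -0.33 for Kmo to 0.45 for Fh1. In the brightest class of all genes 5.92% were past it, so with 10 genes this count is only a description. Creg1, a lysosomal glycoprotein, led at 5983.21 against 5461.3 (log2 difference 0.13), followed by Aldh9a1, an aldehyde dehydrogenase that takes part in carnitine synthesis, at 3561.03 against 3526.51 (0.01). Tmco1, a channel that lets calcium leave the endoplasmic reticulum, read 2358.97 against 2418.37 (-0.04). Gas5, a noncoding host of small nucleolar RNAs, read 1649.54 against 1867.33 (-0.18), and Copa, a subunit of the coat of Golgi vesicles, 1460.61 against 1436.8 (0.02). The other probe sets of Gas5, all above the filter, differed by 0.03, 0.492 and -0.705. Hnrnpu, a nuclear RNA-binding protein, read 1280.36 against 1150.99 (0.15). Fmo1 and Fcer1g completed these 10.

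**Figure D4:**
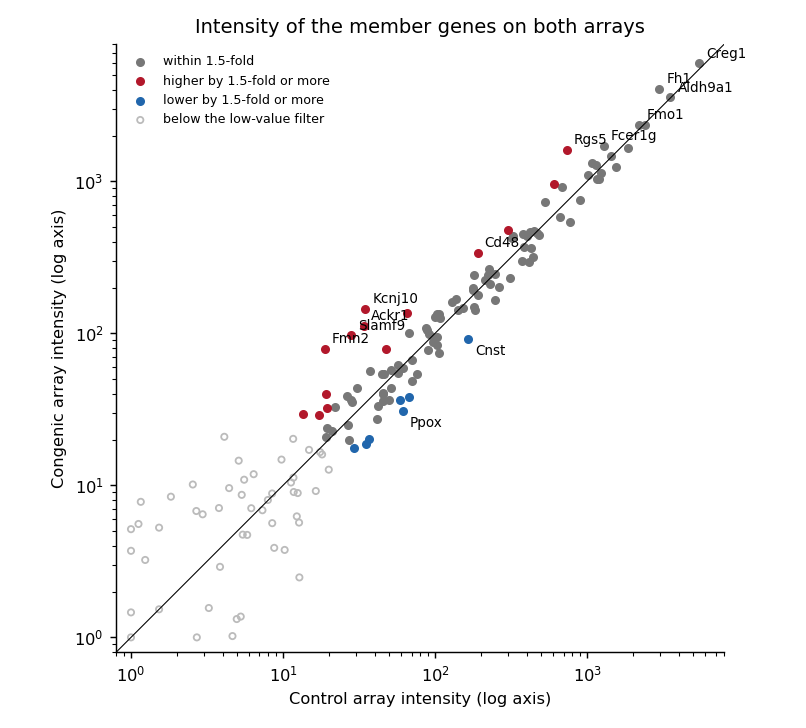
Intensity of the 162 members on the congenic array against the control array (log axes, brightest probe set, line of equal values), with members past 1.5-fold in red or blue and open points below the low-value filter. Points hug the line at high intensity, and Kcnj10, Fmn2, Slamf9 and Ackr1 stand off it at control intensities between 18.82 and 34.8.

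Genes of ion transport held both the highest member and a gene that was lower on each of its probe sets. Of 7 measured, 6 passed the filter, with 2 higher, none lower and a median of -0.02. The share past 1.5-fold over all genes above the filter was 10.7%. Beside Kcnj10, Atp1a4, the sodium pump subunit known from sperm, read 79.1 against 47.83 (log2 difference 0.67). Kcnj9, the potassium channel gene next to Kcnj10, was level on its brightest probe set at 142.28 against 142.08, while another read 32.74 against 13.82 (1.004). Atp1b1, the beta subunit of the sodium pump, read 537.28 against 767.97 (-0.51), and all 5 of its probe sets were lower by a similar amount, from -0.59 to -0.34. Slc19a2, a thiamine transporter, read 1034.47 against 1155.59 (-0.16).

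Of 15 transcription factors and chromatin genes measured, 12 passed the filter, with a median of 0.04. Pogk alone was past 1.5-fold, a share near the 10.7% of all genes. Pogk, a KRAB-domain protein derived from a transposon, read 18.73 against 35.12 (log2 difference -0.76) on 1 probe set and 28.05 against 13.21 (0.86) on the other, so its probe sets gave opposite directions. Atf6, a sensor of unfolded proteins in the endoplasmic reticulum, read 202.55 against 264.68 (-0.38), and its 3 probe sets were all lower. Usf1, a factor of glucose-responsive and lipid genes, read 87.64 against 97.19 (-0.14), with another probe set at 0.19. Zbtb37 had the highest value of the list at 32.53 against 21.97 (0.48).

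Signalling genes were mixed. Of 15 measured, 11 passed the filter, with Arhgap30 and Opn3 higher, Dusp23 lower and a median of 0.11. Among all genes above the filter, 10.7% were past 1.5-fold. Opn3, an opsin expressed outside the eye, read 39.94 against 19.12 (log2 difference 0.90) and Dusp23, a small dual-specificity phosphatase, 36.56 against 58.82 (-0.62). Ildr2, a gene first described as a modifier of diabetes in mice, read 747.48 against 896.55 (-0.26), and its 3 probe sets were all lower, down to -0.55. Pea15a, a phosphoprotein whose overexpression disturbs glucose uptake, read 134.4 against 103.74 (0.36), and its 2 probe sets were both higher. Uhmk1, a kinase of splicing factors, read 166.72 against 247.95 (-0.56), just short of 1.5-fold.

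The remaining lists were small, and with 10.7% of all genes past 1.5-fold their counts are only a description. In the secretory and organelle list 12 of 13 were within it. The exception was Dnm3, a dynamin, at 20.25 against 36.58 (log2 difference -0.72), whose 4 other probe sets were below the filter and ran from -0.34 to 0.36. Vamp4, a membrane fusion protein of the Golgi, read 438.37 against 323.45 (0.43), and its 3 probe sets were all higher. All 14 genes of protein turnover and RNA, from Eef1aknmt (-0.21) to Zbtb37 (0.48), and all 6 of extracellular matrix and adhesion above the filter, from Cadm3 (-0.50) to Vangl2 (0.48), were within 1.5-fold. In the list of cell division and DNA repair, 5 of 6 were within it, between Cenpl (-0.47) and Cep170 (0.27). Cnst, which carries connexins to the cell surface and was placed in that list, read 92.13 against 163.75 (-0.80). The pseudogene Hmga2-ps1 (28.83 against 17.27, 0.60) and the predicted gene Gm7694 (32.33 against 19.36, 0.62) were the other members just past 1.5-fold, and Slamf8, Pcp4l1 and Cdc42bpa, at -0.53, 0.53 and 0.53, stood just short of it.

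Probe sets of 1 gene often disagreed. Of 43 members with at least 2 probe sets above the filter, 25 (58.1%) had all of these in the same direction, against 53.4% of the 4901 such genes on the arrays. The SD of the log2 difference between probe sets of a gene was 0.39 in the members and 0.30 over all genes. Of the members higher by 1.5-fold, 2 had several probe sets above the filter, Rgs5 and Hsd17b7, and both were higher on each of these. Pogk was the only lower one with several, and they disagreed. The other 18 members past 1.5-fold thus rest on a single probe set above the filter.

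Some members within 1.5-fold had another probe set past 2-fold. Pex19, which inserts proteins into the peroxisomal membrane, read 297.31 against 370.41 and 123.88 against 156.19 (log2 differences -0.31 and -0.32), but 57.94 against 210.95 (-1.78) on another. Nit1, an amidase that clears deaminated glutathione, read 1039.72 against 1205.96 (-0.21) and 46.43 against 100.74 (-1.04). Blzf1, a Golgi protein, ran from 0.16 on its brightest to -1.01 on its dimmest probe set. All of these were above the filter. Below it, a probe set of Ncstn, a subunit of gamma-secretase, read 32.43 against 6.1 (1.75) and one of Uhmk1 read 3.69 against 27.26 (-1.89), with smaller ones in Tada1 (1.17), Cadm3 (1.12), Chml (-1.07) and Uck2 (-1.01). How differences of sequence between the donor strain and the probes bear on such readings was not tested.

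**Figure D5:**
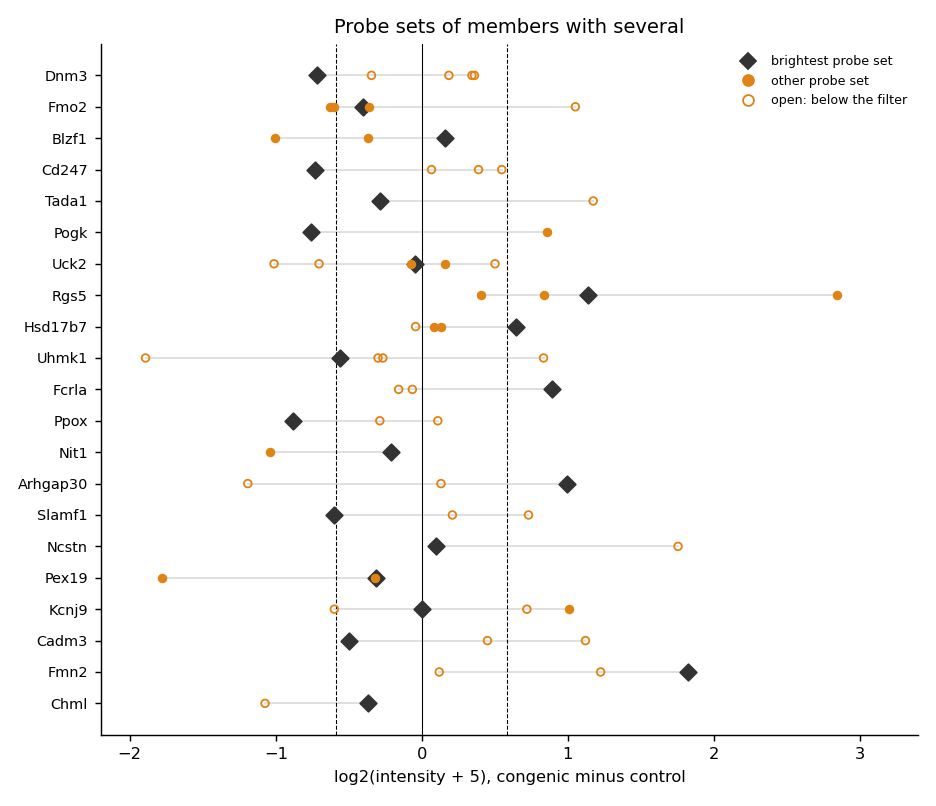
Log2 differences (log2(intensity + 5), congenic minus control) of every probe set of 21 members that are past 1.5-fold with several probe sets or have a dimmer probe set past 2-fold. Diamonds mark the brightest probe set, open symbols lie below the filter, and dashed lines stand at 1.5-fold. Rgs5 is higher on all 4 of its probe sets, whereas the 2 of Pogk lie on opposite sides.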

How the data were processed

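The authors deposited 1 linear intensity per probe set for each of 2 Affymetrix arrays, 45101 probe sets in all. The sources used here do not give the summarization and scaling behind these intensities, or the build of the array annotation. The array medians were 19.3 (congenic) and 19.7 (control), a log2 difference of -0.02 that is below the limit of 0.1 set for rescaling, so values were used as deposited. The 64 control probe sets were left out. Symbols came from the platform annotation (34945 probe sets with 1 symbol, 932 with several and 9160 with none, only the first being used), and 34736 matched GRCm38.p6 by Entrez identifier for order. The assembly's gene coordinates are not printed, apart from the RefSeq promoters.

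Differences are log2(intensity + 5), congenic minus control, of the brightest probe set by mean log2. Genes were named when above the filter and past 1.5-fold, among the 10 brightest, at the ends of a list, or with another probe set past 2-fold. The other members named illustrate their lists and were picked after their values were seen. Members, lists and thresholds were chosen with earlier results of these data known. Alternatives were pseudocounts, scalings, filters, probe set rules and the fold, and the number of arrays limits precision. The procedure was tested on simulated data with larger differences than those of most members named. Their noise was also smaller than the spread between probe sets here. That test checks the code and does not bear on the calls made here. Analyses used Python 3.11.15, numpy 2.4.6 and pandas 2.3.3.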

Additional observations from a re-analysis of the deposited data

How the results depend on the processing

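The count of 21 members past 1.5-fold was 20 to 23 with no pseudocount, loess removal, quantile normalization, median centring or the 50th percentile on at least 1 array as the filter. It was 42 without a filter (26 higher, 16 lower), 12 with a pseudocount of 20 (2 lower), 5 with the 75th percentile (4 higher, 1 lower) and 5 at 2-fold. Without the Fc receptor and SLAM lists and the list of selectins, TNF ligands and lymphocyte genes it was 14, a split chosen after seeing the data. Requiring the 50th percentile on both arrays left 14 of 104 members (9 higher), or 13.5%, against 8.98% of all genes. Plain _at probe sets gave 18 of 102 members (17.65%), against 11.24% of all genes. Averaging all probe sets of a gene gave 15 of 94 members (15.96%), against 8.72% of all genes. Of these 15, 4 were lower, and 12 were among the 21. The median difference of 0.08 was 0.045 after quantile normalization, 0.039 after loess removal, 0.031 without a filter, 0.019 with both arrays required and 0.005 with averaged probe sets, the last pair below the 0.043 and 0.025 of all genes. The median size of 0.29 was 0.24 with a pseudocount of 20, 0.237 with the 75th percentile, 0.331 without a filter and 0.215 with averaged probe sets. Of the 21 members, Arhgap30 (-0.021), Cd247 (0.067), Pogk (0.051) and Slamf1 (0.11) changed sign with averaged probe sets. With plain _at probe sets Fcrla (-0.16) and Pogk (0.86) did. Some members within 1.5-fold also changed sign, among them Cadm3 (0.356), Tada1 (0.444) and Blzf1 (-0.405) with averaged probe sets. Gas5 (0.492) did so with plain _at probe sets and Cep170 (-0.101) after quantile normalization. The cause of these changes was not tested. No paired analysis was possible because each group had 1 array.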
